A study of Homo sapiens with 21 samples.

Results

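Expression of 8 genes of the death receptor system was followed in IMR90 cells, a long-established human fibroblast line derived from lung. The genes comprise the death receptors TNFRSF10A, TNFRSF10B, FAS and TNFRSF1A, the decoy receptors TNFRSF10C, TNFRSF10D and TNFRSF11B, and the intracellular inhibitor CFLAR. They were selected by symbol from the 16383 genes of the deposited table, with earlier results of these data known. All 8 were among the 11579 genes that passed a filter on low values (at least 10 normalized reads in at least 3 libraries).

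Poly(A) RNA was sequenced from 21 libraries in 7 groups of 3. The proliferating group had no treatment per the labels. The other 6 groups were irradiated, transfected with siRNA (5 nM, delivered with DharmaFECT, a lipid reagent) on day 4 and again on day 7, and collected as senescent cells on day 10, all days counted from irradiation. They received the non-targeting siRNA NT3 or NT4, or siRNA against CCND1 (cyclin D1), against CDK4, against CDK6, or against CDK4 and CDK6 together (dual knockdown). All cells were of wild-type genotype per the labels. Since the proliferating cells were neither irradiated nor transfected, irradiation and transfection cannot be told apart in any comparison with them. The series text numbers the control siRNAs 1 and 2, and the names in the sample titles are used here. The labels name 1 siRNA reagent per target, so what a reagent does beyond its target cannot be told apart from loss of the target. Nothing in the labels says that the libraries of a group came from separate cultures, so p-values measure the spread between these libraries, which may be technical.

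Between 12892442 and 21822152 reads per library fell in the genes of the table. The targeted genes checked the labels: CCND1 was at 4198 to 5149 normalized reads in CCND1 knockdown against 25615 to 48813 in the 6 non-targeting libraries. CDK4 was at 105.6 to 110 in CDK4 knockdown and 115 to 123 in dual knockdown, against 1157 to 1356. CDK6 was at 727 to 834 in CDK6 knockdown and 930 to 998 in dual knockdown, against 4147 to 5689. All 10 fibroblast markers examined passed the filter on low values, as did 2 of 6 leukocyte, 2 of 6 epithelial and 3 of 5 endothelial markers. From proliferating to non-targeting libraries 2 of the 10 rose and 7 fell (limma adjusted p below 0.05), where 68.6% of tested genes changed. The 3 endothelial and 2 leukocyte markers that passed rose there. In dual knockdown 7 of the 10 rose and none fell, where 44.0% of tested genes changed. CD3E and LYZ (leukocytes), KRT5 and SFTPC (epithelium) and CDH5 (endothelium) had at most 3 reads in every library. The other epithelial markers were not all absent: the summed level of the 6 was between 278 and 440 in every library, mostly KRT8, and EPCAM averaged 14.2 to 37.2. The summed level of 5 endothelial markers nevertheless ran from 1763 to 1888 in proliferating cells to 4092 to 4509 in CDK6 knockdown, almost all of it TEK, and that of 6 leukocyte markers from 654 to 688 in proliferating cells to 1498 to 1604 in CDK4 knockdown, mostly CD68. Their part in the results below was not tested.

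TRAIL, the product of TNFSF10, binds TNFRSF10A (DR4) and TNFRSF10B (DR5), and FAS ligand binds FAS. Each of these receptors carries a cytoplasmic death domain that recruits the adaptor FADD and caspase-8, which starts apoptosis; TNFRSF1A (TNFR1) carries a death domain too but first assembles a complex that signals to NF-kB. TNFRSF10C is a GPI-anchored TRAIL receptor without a death domain, TNFRSF10D has a truncated one, and TNFRSF11B (osteoprotegerin) is a secreted receptor that binds TRAIL and RANKL, so all of them can take up ligand without passing on a death signal. CFLAR encodes c-FLIP, a caspase-8 relative that blocks caspase-8 activation at the receptor. FAS and several TNFRSF10 genes are known targets of p53.

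Compared per kilobase of transcript, the 8 genes spanned a wide range of levels. In proliferating cells the normalized read count per kilobase of the annotated reference transcript was 1025 for TNFRSF1A, 611 for TNFRSF10B, 557 for TNFRSF10D and 484 for TNFRSF11B. It was 172 for FAS, 65.5 for CFLAR, 23.4 for TNFRSF10A and 16.15 for TNFRSF10C. TNFRSF10D stood highest in dual knockdown, at 2760 per kilobase, ahead of TNFRSF10B at 1350 and TNFRSF1A at 1324. In the 6 irradiated groups TNFRSF10A was lowest, at 47.8 to 80.5 per kilobase, while TNFRSF10C was at 143.5 to 221 and above CFLAR at 110.5 to 133.5. The annotation that the authors counted with is not given in the sources used here, and the order depends on length. Over all annotated exons, proliferating cells had 557 per kilobase for TNFRSF10D against 529 for TNFRSF1A, and 21.7 for FAS. By that length FAS was below TNFRSF10A in NT4 (60.15 against 70.04), CDK4 knockdown (59.47 against 74.03) and CCND1 knockdown (48.98 against 52.84). TNFRSF10A stayed lowest in NT3, CDK6 and dual knockdown.

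**Figure D1:**
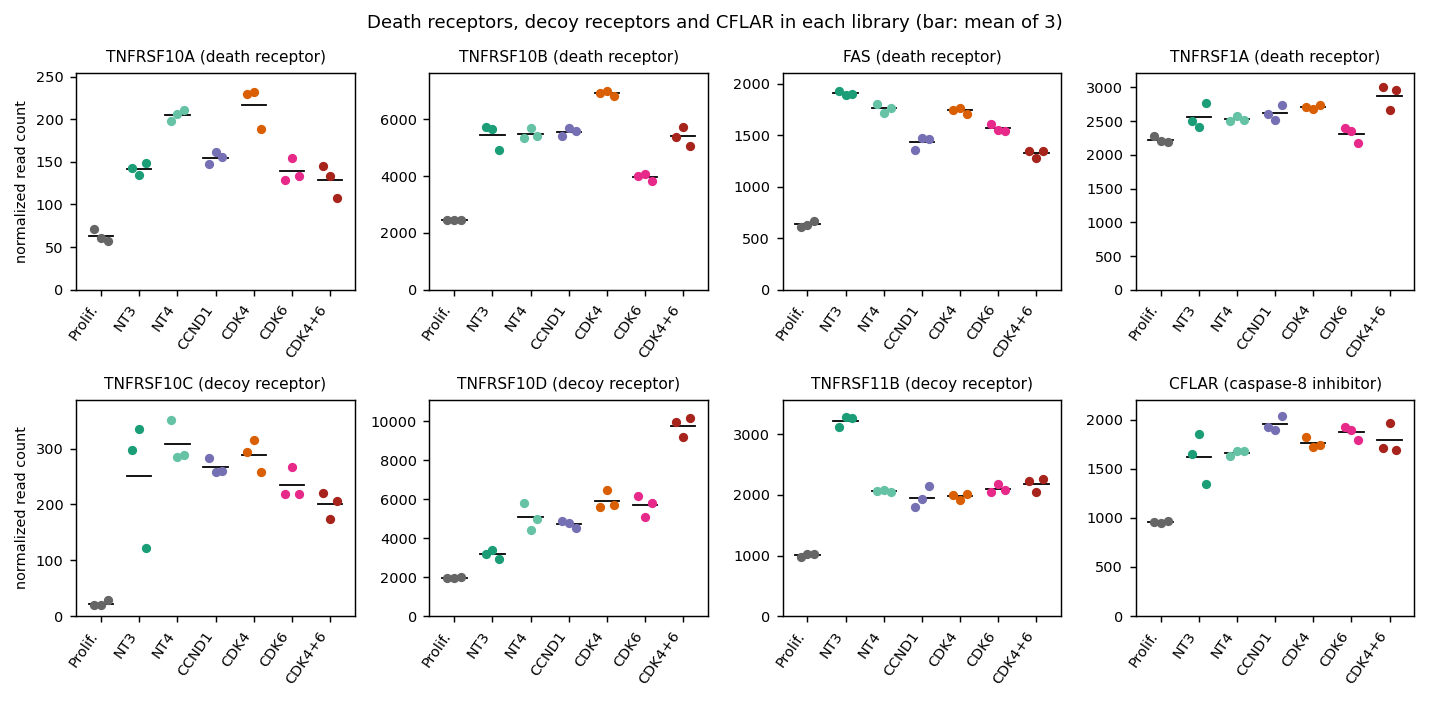
Normalized read count (vertical axes, each from 0) of the 8 genes in every library; points are libraries, bars are means of 3, and CDK4+6 is dual knockdown. Each gene was lowest on average in proliferating cells, TNFRSF10B was highest in CDK4 knockdown (6808 to 7007) and TNFRSF10D in dual knockdown (9175 to 10141).

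Senescent controls were set against proliferating cells to describe the state on which the knockdowns act. All 8 genes rose, where 32.6% of the 11579 tested genes rose and 68.6% changed in either direction (limma, Benjamini-Hochberg adjusted p below 0.05). The median log2 fold change of the 8 was 1.25, beside -0.03 over all tested genes. All 8 also rose against NT3 alone and against NT4 alone, as 24.9% of tested genes did, and for all 8 every control library lay above every proliferating one, as at 25.2% of tested genes. Fold changes here and below are differences on the log2 scale of the normalized count plus 1, which understates the change of scarce genes.

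Among the death receptors, FAS had 612, 627 and 669 normalized reads in proliferating cells, 1933, 1895 and 1898 in NT3 and 1806, 1719 and 1765 in NT4. Every senescent control library lay above every proliferating one, and NT3 lay slightly above NT4 without overlap. The rise was 1.53 on the log2 scale (SE 0.05, limma adjusted p = 2.86e-17). TNFRSF10B had 2439, 2438 and 2457 normalized reads in proliferating cells against 4917 to 5723 in the 6 control libraries, a rise of 1.16 (SE 0.05, limma adjusted p = 1.25e-14). TNFRSF10A rose by 1.43 (SE 0.11, limma adjusted p = 9.8e-11), from 57.6 to 70.8 normalized reads in proliferating libraries to 134 to 211 in controls. TNFRSF1A moved least of the 8, from 2190 to 2284 in proliferating cells to 2406 to 2761 in controls, and its rise of 0.19 (SE 0.05, limma adjusted p = 0.00241) was still without overlap between the libraries.

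The decoy receptors rose as well. TNFRSF10C went from 20.1, 19.2 and 28.3 normalized reads (18 to 32 reads) in proliferating cells to 297, 334 and 121 in NT3 and 352, 285 and 288 in NT4. One NT3 library, replicate 3 in column order, was far below the other 5 control libraries but still above all proliferating ones. That library had the fewest reads of all (12892442). Among the controls it was also lowest for TNFRSF10B, TNFRSF10D and CFLAR, highest for TNFRSF1A, and neither for TNFRSF10A, TNFRSF11B and FAS. The rise of TNFRSF10C by 3.52 (SE 0.21, limma adjusted p = 2.14e-12), or 11.5-fold, was the largest of the 8 genes. TNFRSF11B had 974, 1027 and 1028 normalized reads in proliferating cells and 2051 to 3280 in controls, a rise of 1.35 (SE 0.05, limma adjusted p = 1.46e-15). TNFRSF10D had 1954, 1944 and 2012 in proliferating cells and 2916 to 5777 in controls, a rise of 1.02 (SE 0.07, limma adjusted p = 6.65e-11). CFLAR rose less than the FAS receptor gene, by 0.77 (SE 0.07, limma adjusted p = 3.19e-09), from 945 to 966 to between 1342 and 1853; the difference between the rises of the genes was not tested.

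The controls differed from each other at 3 of the 8 genes, where 27.8% of tested genes did. TNFRSF10D was lower in NT3 (3161, 3404 and 2916) than in NT4 (5777, 4423 and 4994), with no overlap, a difference of 0.67 (NT4 minus NT3, SE 0.09, limma adjusted p = 4.75e-06). TNFRSF11B differed the other way, at 3114, 3280 and 3275 in NT3 and 2057, 2073 and 2051 in NT4 (-0.65, SE 0.06, limma adjusted p = 6.58e-08). TNFRSF10A was higher in NT4, at 198, 206 and 211 against 142, 134 and 148 (0.53, SE 0.12, limma adjusted p = 0.00269). Knockdowns were compared with the mean of both controls.

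**Figure D2:**
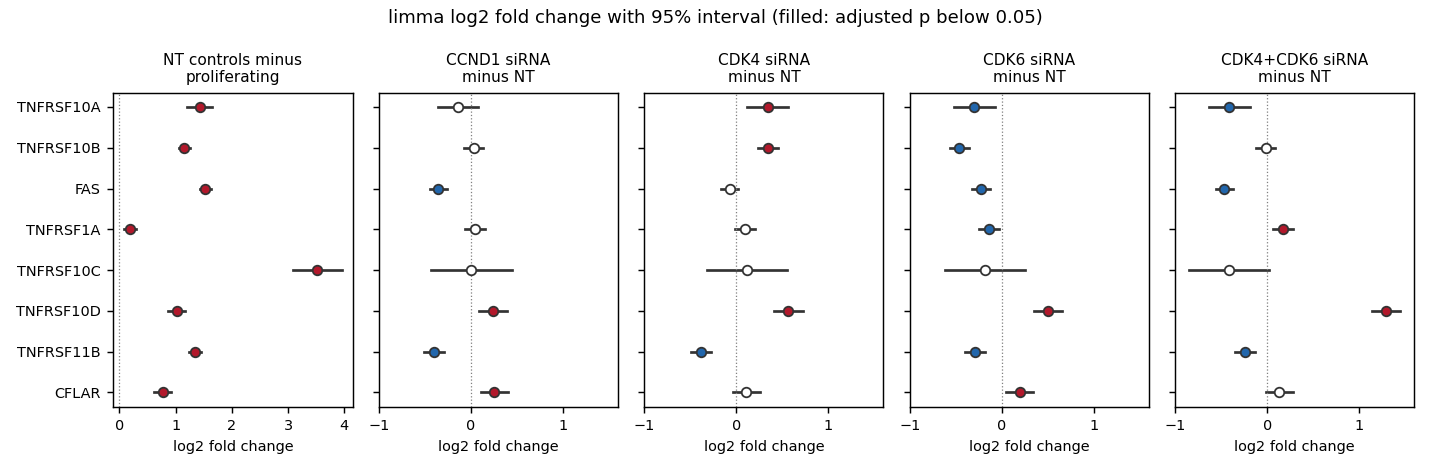
Log2 fold change (horizontal axes) of each gene in senescent controls against proliferating cells and in the 4 knockdowns against the NT3 and NT4 mean; bars are 95% intervals and filled points passed an adjusted p of 0.05 (red higher, blue lower). All 8 points are filled and above 0 in the first panel, while FAS lies below 0 in CCND1, CDK6 and dual knockdown and TNFRSF10D reaches 1.29 in dual knockdown.

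Against both controls together, CCND1 knockdown changed 4 of the 8 genes, with TNFRSF10D and CFLAR higher and FAS and TNFRSF11B lower (31.0% of tested genes changed). CDK4 knockdown changed 4 as well, with TNFRSF10A, TNFRSF10B and TNFRSF10D higher and TNFRSF11B lower (16.0%). CDK6 knockdown changed 7, with TNFRSF10D and CFLAR higher and TNFRSF10A, TNFRSF10B, FAS, TNFRSF1A and TNFRSF11B lower (41.9%). Dual knockdown changed 5, with TNFRSF10D and TNFRSF1A higher and TNFRSF10A, FAS and TNFRSF11B lower (44.0%). The median log2 fold change of the 8 genes was 0.02, 0.11, -0.20 and -0.13 in these 4 comparisons, beside medians of all tested genes between -0.01 and 0.003. These 4 comparisons share their control libraries and are not independent of each other.

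Fewer changes passed the test against NT3 alone and against NT4 alone in the same direction. In CCND1 knockdown FAS fell by this stricter count, as did 5.45% of tested genes. In CDK4 knockdown TNFRSF10B rose by it (2.05%), and in CDK6 knockdown TNFRSF10B and FAS fell (10.9%). In dual knockdown TNFRSF10D and TNFRSF1A rose (11.3%) and FAS fell (12.3%). In none of the 4 knockdowns did TNFRSF10A, TNFRSF10C, TNFRSF11B or CFLAR pass against both.

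**Figure D3:**
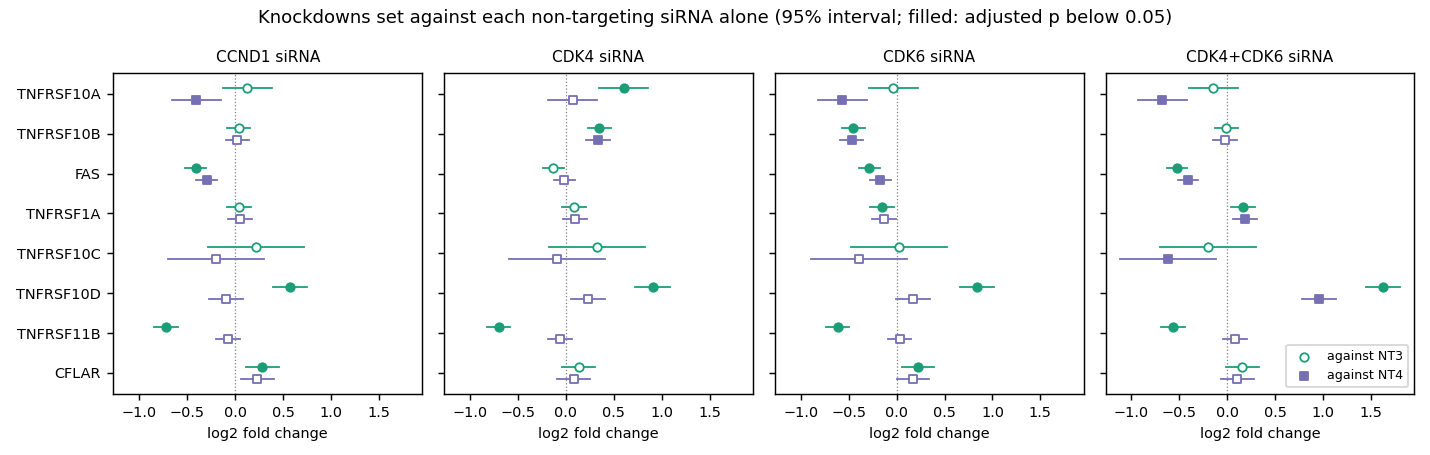
Log2 fold change of the 8 genes in each knockdown (panels) against NT3 alone (circles) and NT4 alone (squares), with 95% intervals; filled symbols passed an adjusted p of 0.05. The symbols of TNFRSF11B and TNFRSF10D lie far apart in every panel, whereas those of TNFRSF10B nearly coincide at 0.35 and 0.34 in CDK4 knockdown and at -0.45 and -0.47 in CDK6 knockdown.

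FAS, the receptor of FAS ligand, was lower in 3 of the 4 knockdowns. It had 1363, 1476 and 1468 normalized reads in CCND1 knockdown, 1611, 1550 and 1545 in CDK6 knockdown and 1347, 1283 and 1348 in dual knockdown. All 9 of these libraries lay below all 6 control libraries (1719 to 1933) and far above proliferating cells. FAS fell by 0.35 in CCND1 knockdown (SE 0.05, limma adjusted p = 4.29e-06), by 0.23 in CDK6 knockdown (SE 0.05, limma adjusted p = 0.000354) and by 0.47 in dual knockdown (SE 0.05, limma adjusted p = 2.63e-08). CDK4 knockdown, at 1751, 1768 and 1711, overlapped NT4 and was not past the threshold (-0.07, 95% interval -0.17 to 0.02, limma adjusted p = 0.299). From the lowest mean, the order of groups was proliferating (636), dual (1326), CCND1 (1436), CDK6 (1569), CDK4 (1743), NT4 (1763) and NT3 (1909), and CDK4 knockdown and NT4 were the only neighbours whose libraries overlapped. Dual knockdown was below CDK6 knockdown by 0.24 (SE 0.05, limma adjusted p = 0.00269), and CDK6 below CDK4 knockdown by 0.15 (SE 0.05, limma adjusted p = 0.0253); the latter call was lost when CDK4 replicate 1 or 2 or CDK6 replicate 2 or 3 was left out (adjusted p 0.0654 to 0.0818).

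FAS lies at chr10:88953813-89029605 of hg38 on the plus strand. There the GENCODE annotation places 387 of its exon bases on those of ACTA2 (smooth muscle actin) on the opposite strand. It places 166 on those of STAMBPL1 on the same strand. More, 1899, lie on those of the noncoding gene model ENSG00000286116 on the opposite strand, which the deposited table does not list. The strand setting of the read counting is not given in the sources used here, so reads of FAS and ACTA2 in the shared stretch cannot be told apart. ACTA2 fell by 0.60 in senescent controls and rose by 0.92 in CCND1, by 1.03 in CDK6 and by 0.53 in dual knockdown (SE 0.06 each, limma adjusted p at most 5.8e-07), each opposite to FAS. It fell by 0.455 in CDK4 knockdown (limma adjusted p = 3.27e-05) and was 0.50 lower in dual than in CDK6 knockdown (limma adjusted p = 6.03e-05), beside FAS values of -0.07 and -0.24. STAMBPL1 fell by 0.74 in senescent controls, by 0.35 in CCND1 knockdown, by 0.19 in CDK4 knockdown and by 0.24 in dual knockdown (SE 0.07 each, limma adjusted p at most 0.0469). In CDK6 knockdown STAMBPL1 was at 0.02 (limma adjusted p = 0.861). The part of shared reads in the FAS values was not tested.

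TNFRSF10B, the TRAIL receptor DR5, moved in opposite directions under CDK4 and CDK6 knockdown. It had 6930, 7007 and 6808 normalized reads in CDK4 knockdown and 3993, 4077 and 3813 in CDK6 knockdown, with 4917 to 5723 in the controls between them and no overlap on either side. It rose by 0.34 with CDK4 siRNA (SE 0.05, limma adjusted p = 6.29e-05) and fell by 0.46 with CDK6 siRNA (SE 0.05, limma adjusted p = 2.79e-07). Set directly against each other, CDK6 knockdown was 0.80 below CDK4 knockdown (SE 0.06, limma adjusted p = 8.36e-10).

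With both siRNAs TNFRSF10B had 5382, 5739 and 5065 normalized reads, 2 libraries within the range of the controls and 1 just above it (-0.02, 95% interval -0.12 to 0.09, limma adjusted p = 0.822). After quantile normalization it was just past the threshold (-0.126, limma adjusted p = 0.049). It was 0.45 above CDK6 knockdown alone (SE 0.06, limma adjusted p = 1.75e-05), with no overlap. The sum of the single effects was not distinguishable from the dual effect (departure 0.10, 95% interval -0.06 to 0.26, limma adjusted p = 0.478). CCND1 knockdown, at 5418, 5678 and 5587, overlapped the controls (0.03, 95% interval -0.08 to 0.13, limma adjusted p = 0.7). In order of means, dual knockdown, NT3, NT4 and CCND1 knockdown (5395 to 5561) overlapped as neighbours, with CDK6 knockdown and proliferating cells apart below them and CDK4 knockdown apart above. The gene shares 377 annotated exon bases with RHOBTB2 on the opposite strand, which was not past the threshold in any of the 4 knockdowns (limma adjusted p 0.405 to 0.755).

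TNFRSF10A, the TRAIL receptor DR4, was a scarce transcript with 57 to 242 reads per library, and its knockdown values depended on the control. CDK4 knockdown had 229, 232 and 188 normalized reads, which is above NT3 and overlaps NT4. The rise of 0.34 (SE 0.11, limma adjusted p = 0.0323) was 0.61 against NT3 alone and 0.07 against NT4 alone, where it was not past the threshold (limma adjusted p = 0.779). It was also lost without NT3 replicate 2, NT4 replicate 1 or 2, or CDK4 replicate 1 or 2 (adjusted p 0.0509 to 0.176), without the filter on low values (adjusted p 0.051) and with only the compared groups fitted (adjusted p 0.0625).

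In dual knockdown TNFRSF10A had 145, 133 and 108.1 normalized reads, below all NT4 libraries but overlapping NT3. It fell by 0.41 (SE 0.11, limma adjusted p = 0.00347), by 0.68 against NT4 alone, and its value against NT3 alone was -0.15 (limma adjusted p = 0.357). CDK6 knockdown, at 128, 155 and 133, showed the same dependence, with -0.30 (SE 0.11, limma adjusted p = 0.0288) against both controls and -0.03 against NT3 alone (limma adjusted p = 0.854). Without CDK6 replicate 1 or 3 that call was lost too (adjusted p 0.135 and 0.104), as it was after quantile normalization (adjusted p 0.0502). The direct comparison without control libraries did separate the single knockdowns: CDK6 knockdown was 0.64 below CDK4 knockdown (SE 0.12, limma adjusted p = 0.000321), with no overlap, the same direction as for TNFRSF10B. CCND1 knockdown, at 148 to 161, was not past the threshold against both controls (-0.14, limma adjusted p = 0.343). It was past it against NT4 alone (-0.405, limma adjusted p = 0.0238) and not against NT3 alone (0.13, limma adjusted p = 0.431).

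TNFRSF1A, the receptor of tumour necrosis factor (chr12:6328757-6342114, minus strand), changed little throughout. It had 2403, 2346 and 2170 normalized reads in CDK6 knockdown and 3007, 2660 and 2954 in dual knockdown, against 2406 to 2761 in the controls. The CDK6 libraries lay just below all controls, and 1 dual library lay within the control range. The rise in dual knockdown was 0.17 (SE 0.05, limma adjusted p = 0.00938), and it was lost without dual replicate 1 or 3 (adjusted p 0.0709 and 0.0552), after quantile normalization (0.11, adjusted p 0.0942) and when only the compared groups were fitted (adjusted p 0.0671). In CDK6 knockdown the change was -0.14 (SE 0.05, limma adjusted p = 0.0326); it was lost against NT4 alone, with only the compared groups fitted, and without NT4 replicate 2 or CDK6 replicate 2 or 3 (adjusted p 0.055 to 0.213). Directly compared, dual knockdown was 0.32 above CDK6 knockdown (SE 0.06, limma adjusted p = 0.000952) and CDK6 was 0.23 below CDK4 knockdown (SE 0.06, limma adjusted p = 0.00429), both without overlap.

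The single knockdowns thus differed directly at 4 of the 8 genes, all 4 death receptors and each lower with CDK6 siRNA than with CDK4 siRNA, where 34.8% of tested genes differed and 17.3% were lower. The decoy receptors and CFLAR were not past the threshold in that comparison (limma adjusted p 0.275 to 0.626), but TNFRSF10C was lower past it with only the compared groups fitted (-0.30, limma adjusted p = 0.0406). The FAS call among the 4 was lost in the 4 fits without a library given above.

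TNFRSF10D, the decoy with a truncated death domain, carried the largest knockdown change of the 8 genes. It had 9953, 9175 and 10141 normalized reads in dual knockdown, and no library of any other group exceeded 6476. It rose by 1.29 (SE 0.07, limma adjusted p = 1.16e-11), or 2.45-fold, by 1.63 against NT3 alone and by 0.95 against NT4 alone. It was 0.78 above CDK6 knockdown (SE 0.09, limma adjusted p = 1.62e-06) and 1.05 above CCND1 knockdown (SE 0.09, limma adjusted p = 1.39e-08), with no overlap in either case.

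The single knockdowns of TNFRSF10D were less clear. CDK4 knockdown had 5575, 6476 and 5695 normalized reads, CDK6 knockdown 6147, 5098 and 5785 and CCND1 knockdown 4855, 4752 and 4509. All 9 libraries lay above NT3 and all 3 groups overlapped NT4. Against both controls TNFRSF10D rose by 0.57 with CDK4 siRNA (SE 0.07, limma adjusted p = 1.52e-05), by 0.51 with CDK6 siRNA (SE 0.07, limma adjusted p = 1.24e-05) and by 0.24 with CCND1 siRNA (SE 0.07, limma adjusted p = 0.0178). Against NT4 alone the values were 0.23, 0.17 and -0.10, none past the threshold (limma adjusted p 0.0905, 0.148 and 0.469). The CCND1 call was also lost without CCND1 replicate 1 or 2 (adjusted p 0.0819 and 0.0653), after quantile normalization (0.17, adjusted p 0.108) and with only the compared groups fitted (adjusted p 0.07). The dual effect exceeded the sum of the single ones by 0.22, which was not past the threshold (95% interval -0.02 to 0.45, limma adjusted p = 0.276); this departure was -0.12 with NT3 alone and 0.56 with NT4 alone (limma adjusted p = 0.00877).

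TNFRSF11B, osteoprotegerin, was higher in NT3 than in all other groups and close together in the remaining senescent ones. Its libraries ran from 1799 to 2145 normalized reads in CCND1 knockdown, from 1917 to 2019 in CDK4 knockdown, from 2054 to 2183 in CDK6 knockdown and from 2053 to 2255 in dual knockdown, beside 2051 to 2073 in NT4 and 3114 to 3280 in NT3. Against both controls it fell by 0.40, 0.38, 0.29 and 0.24 in these knockdowns (SE 0.05 each, limma adjusted p at most 0.000669). Against NT4 alone the values were -0.08, -0.06, 0.03 and 0.08, none past the threshold (limma adjusted p 0.304 to 0.742), so each of these falls rests on NT3.

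TNFRSF11B was also the 1 gene of the 8 whose dual effect departed from the sum of the single effects past the threshold, where 6.35% of tested genes did. The departure was 0.43 (SE 0.08, limma adjusted p = 0.0014). It was 0.75 with NT3 alone as control and 0.11 with NT4 alone, the latter not past the threshold (limma adjusted p = 0.585). TNFRSF10A departed with NT3 alone (-0.72, limma adjusted p = 0.00709) and not with NT4 alone (-0.19, limma adjusted p = 0.665). Against both controls, for the other 7 genes the departure ran from -0.45 in TNFRSF10A (limma adjusted p = 0.105) to 0.23 in TNFRSF1A (limma adjusted p = 0.0969). The TNFRSF1A value passed the threshold without NT3 replicate 2 or 3 or dual replicate 2 (0.20 to 0.28, adjusted p 0.0405 to 0.0489).

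**Figure D4:**
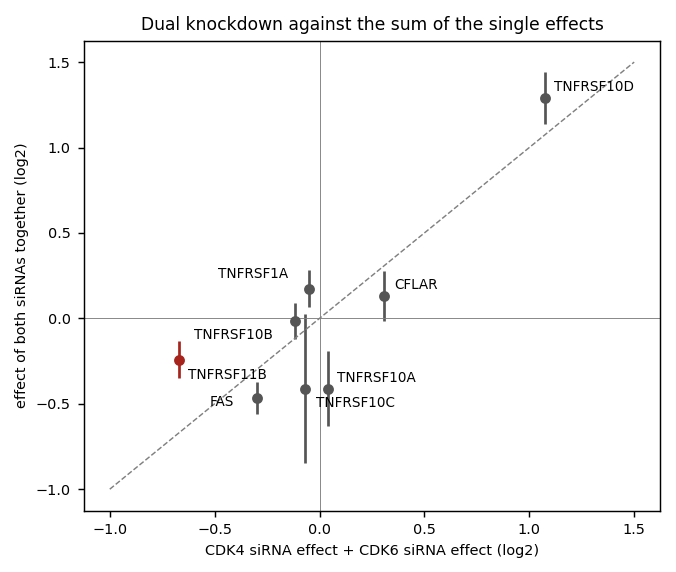
Log2 effect of both siRNAs together (vertical axis, with 95% interval) against the sum of the CDK4 and CDK6 siRNA effects (horizontal axis), each against the mean of NT3 and NT4; points on the dashed line are additive. TNFRSF11B (red) passed the test of departure at 0.43, and TNFRSF10D lies far to the upper right with a dual effect of 1.29.

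TNFRSF10C, the GPI-anchored decoy, had 258 to 283 normalized reads in CCND1 knockdown, 257 to 315 in CDK4 knockdown, 218 to 267 in CDK6 knockdown and 174 to 221 in dual knockdown. Dual knockdown lay below the 5 upper control libraries and above NT3 replicate 3, at 121. None of the 4 knockdowns passed the threshold (limma adjusted p 0.119 to 0.987). Without NT3 replicate 3, dual knockdown was lower by 0.64 (limma adjusted p = 9.6e-05) and CDK6 knockdown by 0.41 (limma adjusted p = 0.0073), against -0.41 (95% interval -0.85 to 0.03) and -0.18 (95% interval -0.62 to 0.25) with it. Dual knockdown also passed with that library kept, against NT4 alone (-0.62, limma adjusted p = 0.0495) and on the reads recovered from the table (edgeR -0.48, adjusted p = 0.0469; DESeq2 -0.49, adjusted p = 0.0315). In GENCODE 249 exon bases of TNFRSF10C coincide with a protein-coding gene model on the same strand, ENSG00000284956, and the 4 TNFRSF10 genes are close paralogs within 204970 bases of chromosome 8; how reads that match several of them were counted is not given in the sources used here, so their values are uncertain to that extent.

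CFLAR (chr2:201116154-201176687, plus strand) had 1920, 1893 and 2039 normalized reads in CCND1 knockdown and 1929, 1891 and 1792 in CDK6 knockdown, against 1342 to 1853 in the controls. The CCND1 libraries lay above all controls and the CDK6 libraries overlapped them. CFLAR rose by 0.26 with CCND1 siRNA (SE 0.07, limma adjusted p = 0.00879) and by 0.20 with CDK6 siRNA (SE 0.07, limma adjusted p = 0.0305). Against NT4 alone these were 0.23 and 0.17 and not past the threshold (limma adjusted p 0.0531 and 0.127). The CCND1 call was lost without CCND1 replicate 3 (adjusted p 0.0551), and the CDK6 call without NT4 replicate 1 or CDK6 replicate 1 or 2 (adjusted p 0.0537 to 0.116). Both were lost with only the compared groups fitted (adjusted p 0.0648 and 0.117). Dual knockdown, at 1712, 1965 and 1694, was not past the threshold (0.13, limma adjusted p = 0.143), and passed it without NT3 replicate 2 (0.18, limma adjusted p = 0.0186). In GENCODE 1488 exon bases of CFLAR coincide with the pseudogene IMPDH1P10 and 777 with CFLAR-AS1, both on the opposite strand. The part of such shared reads in the CFLAR values was not tested.

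Dual knockdown was also compared directly with CDK6 and with CCND1 knockdown, but not with CDK4 knockdown. Against CDK6 knockdown 4 of the 8 genes differed, TNFRSF10B, TNFRSF10D and TNFRSF1A higher and FAS lower, where 13.0% of tested genes differed. Against CCND1 knockdown 1 of the 8 did, TNFRSF10D, where 20.3% of tested genes differed. FAS in that second comparison was 0.11 higher in CCND1 knockdown (95% interval 0.01 to 0.22, limma adjusted p = 0.13), with libraries that did not overlap. TNFRSF11B was past the threshold there without CCND1 replicate 3 or dual replicate 2 (-0.23 and -0.20), as was TNFRSF1A without dual replicate 2 (-0.19). With only the compared groups fitted TNFRSF10C passed (0.42, limma adjusted p = 0.00992), and after median centring TNFRSF11B did (-0.165, limma adjusted p = 0.0486).

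The balance of decoy to death receptor transcripts, and of CFLAR to FAS, is described here by ratios of normalized counts within a library, with no test. TNFRSF10D over TNFRSF10B was 0.806 ± 0.0115 (SD, n = 3) in proliferating cells, 0.582 ± 0.0263 in NT3 and 0.928 ± 0.155 in NT4. It was 0.847 ± 0.0452 in CCND1 knockdown and 0.855 ± 0.062 in CDK4 knockdown. It was 1.44 ± 0.161 in CDK6 knockdown and 1.82 ± 0.204 with both siRNAs. All 6 libraries of these groups (1.25 to 2.002) exceeded every other library (at most 1.085). The other decoy receptors did not share this pattern. TNFRSF10C over TNFRSF10B averaged 0.0373 in dual and 0.0592 in CDK6 knockdown, beside 0.0452 in NT3 and 0.0564 in NT4. TNFRSF11B over TNFRSF10B averaged 0.406 in dual and 0.532 in CDK6 knockdown, between NT4 (0.376) and NT3 (0.597). CFLAR over FAS was 1.51 ± 0.0614 in proliferating cells, 0.846 ± 0.136 in NT3 and 0.943 ± 0.0387 in NT4. It was 1.36 ± 0.0675 in CCND1 knockdown, 1.19 ± 0.0303 in CDK6 knockdown and 1.35 ± 0.155 in dual knockdown, above every control library (at most 0.978), and 1.01 ± 0.0338 in CDK4 knockdown, which overlapped them.

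**Figure D5:**
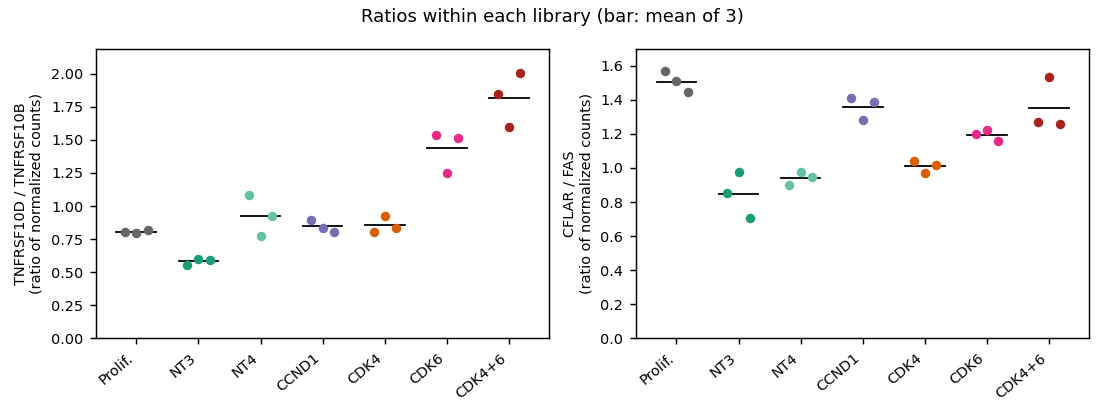
Ratio of normalized counts (vertical axes, from 0) of TNFRSF10D over TNFRSF10B and of CFLAR over FAS in every library; points are libraries and bars are means of 3. All libraries of CDK6 and dual knockdown had a first ratio of 1.25 or more, and the mean of the second was lowest in the 2 controls and highest in proliferating cells.

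The genes most like each of the 8 across the 18 irradiated libraries were found by Pearson's r on the log2 scale, as a description; the libraries share groups, scaling and depth. FAS was closest to USP18 (r = 0.94), CD274 (0.939) and PTGS2 (0.937), of which CD274 encodes the immune checkpoint ligand PD-L1 and PTGS2 cyclooxygenase-2. TNFRSF10B was closest to G3BP1 (0.967), which encodes a stress granule protein, and to HMGA2 (0.933). TNFRSF10D was closest to SPARC (0.938), a matrix glycoprotein gene, TADA3 (0.932) and ADAMTS2 (0.93), which processes procollagen. TNFRSF11B was closest to GPX3 (0.946), DIO2 (0.932) and TCF21 (0.907). For the remaining 4 genes the closest were SNCAIP for TNFRSF10A (0.9), SPEN for TNFRSF10C (0.932), TRIM16 for TNFRSF1A (0.889) and RAD50 for CFLAR (0.909). TNFRSF10C was at 121 in NT3 replicate 3 and at 174 in the next lowest of these libraries. How far its r rests on NT3 replicate 3 was not tested.

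Of 6 ligand genes of the TNF family examined, only TNFSF10 and TNFSF15 passed the filter on low values. FASLG, TNF, LTA and TNFSF11 (RANKL) had at most 3 reads in every library. TNFSF10, which encodes TRAIL, had 4 to 12 reads in proliferating cells and 21 to 36 in the controls, with no overlap in reads or in normalized counts, and rose by 2.12 (SE 0.45, limma adjusted p = 0.000252). It had 2 to 14 reads in CDK6 knockdown and 4 to 19 in dual knockdown, below all control libraries in reads although 1 dual library (20.97 normalized reads) overlapped the controls after scaling, and fell by 1.97 (SE 0.45, limma adjusted p = 0.00128) and 1.19 (SE 0.45, limma adjusted p = 0.0351), the latter not past the threshold against NT4 alone (limma adjusted p = 0.122). TNFSF15, which encodes the TNF family cytokine TL1A, had 4 to 5 reads in proliferating cells, 133 to 343 in NT3 and 73 to 113 in NT4. It fell by 1.99 in CDK6 knockdown (28 to 48 reads; SE 0.19, limma adjusted p = 5.48e-08) and by 1.63 in dual knockdown (42 to 44 reads; SE 0.19, limma adjusted p = 6.57e-07).

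Downstream of the receptors, 11 adaptor and caspase genes were examined. In senescent controls 5 rose and 5 fell, with a median of 0.13, where 32.6% of tested genes rose and 68.6% changed in either direction. CASP10, a caspase recruited to the receptors, rose by 1.66 (limma adjusted p = 5e-04) from 2 to 5 reads to 8 to 23, and fell by 1.37 in dual knockdown (limma adjusted p = 0.00537) to 2 to 6 reads. CASP6, an effector caspase, fell by 1.15 in senescent controls (limma adjusted p = 9.83e-09). APAF1, the core of the apoptosome, fell by 1.21 in senescent controls (limma adjusted p = 9.1e-11), but its mean was 329 in NT3 and 818 in NT4, and its rise of 0.85 in dual knockdown (930 on average, limma adjusted p = 1.28e-07) was 0.19 against NT4 alone (limma adjusted p = 0.16). Of the 11, 2 rose and 1 fell in CCND1 knockdown, 2 rose and 1 fell in CDK4 knockdown, 1 rose and 4 fell in CDK6 knockdown, and 2 rose and 2 fell in dual knockdown, where 31.0%, 16.0%, 41.9% and 44.0% of tested genes changed in either direction.

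Of 5 genes for inhibitors of apoptosis, 2 rose and 1 fell in senescent controls, where 32.6% of tested genes rose and 68.6% changed. BIRC3, which encodes the ubiquitin ligase cIAP2, rose by 2.51 (limma adjusted p = 3.64e-13), from 140 ± 4.10 to 784 ± 31.4 in NT3 and 827 ± 115.5 in NT4 (SD, n = 3 each). It fell by 1.76 in CDK6 knockdown (239 ± 45.5, limma adjusted p = 1.66e-09) and fell by 1.73 in dual knockdown (244 ± 47.6, limma adjusted p = 1.13e-09). BIRC2, which encodes cIAP1, rose by 0.77 in senescent controls (limma adjusted p = 1.07e-10) and fell by 0.40 in dual knockdown (limma adjusted p = 7.37e-06). BIRC5, which encodes the mitotic protein survivin, fell by 2.24 in senescent controls (limma adjusted p = 2.85e-13) and by a further 3.08 in dual knockdown (limma adjusted p = 2.5e-14). Of the 5, XIAP and BIRC6 rose and the other 3 fell in CDK6 knockdown, and the same held in dual knockdown, where 41.9% and 44.0% of tested genes changed. XIAP averaged 947 in NT3 and 1614 in NT4, beside 1639 in CDK6 and 1596 in dual knockdown, and its value against NT4 alone was 0.02 in CDK6 knockdown and -0.02 in dual knockdown (limma adjusted p 0.879 and 0.881). BIRC6 was not past the threshold against NT4 alone either (0.37 and 0.245, limma adjusted p 0.0653 and 0.206).

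Of 10 measured genes for the TNFR1 complex, 7 rose and 1 fell in senescent controls, with a median of 0.62. Of all tested genes 32.6% rose there and 68.6% changed in either direction. MLKL, also chosen for this list, is not among the gene symbols of the deposited table. TNFAIP3, which encodes the NF-kB inhibitor A20, rose by 2.37 (limma adjusted p = 3.06e-10) and fell by 2.17 in CDK6 knockdown (limma adjusted p = 1.14e-08) and by 2.04 in dual knockdown (limma adjusted p = 1.84e-08). Its mean was 187 in proliferating cells, 1235 in NT3, 780 in NT4, 220 in CDK6 knockdown and 240.5 in dual knockdown. TRAF1 rose by 0.79 in senescent controls (limma adjusted p = 1.34e-05) and fell by 1.13 in dual knockdown (limma adjusted p = 3.47e-07). RIPK3, a kinase of necroptosis, had 0 to 3 reads in proliferating libraries, 16 to 23 in NT3, 5 to 11 in NT4 and 2 to 9 in dual knockdown. Its dual value was -1.84 against NT3 alone (limma adjusted p = 0.0075) and -0.645 against NT4 alone (limma adjusted p = 0.363). None of the 10 rose in CCND1, CDK4, CDK6 or dual knockdown, while 4, 1, 3 and 5 fell (limma adjusted p below 0.05), beside 31.0%, 16.0%, 41.9% and 44.0% of tested genes that changed in either direction.

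Of 15 further receptors of the family, 10 were tested, and 6 rose and 2 fell in senescent controls. Of all tested genes 32.6% rose there and 68.6% changed in either direction. NGFR had 0 reads in every proliferating library and 12 to 25 reads in the controls, and fell in dual knockdown to 3 to 4 reads (limma adjusted p = 4.33e-05). CD40, the receptor of CD40 ligand, rose from 1 to 4 reads to 12 to 38 (limma adjusted p = 1.9e-07) and had 12 to 20 in dual knockdown, which was not past the threshold (limma adjusted p = 0.432). TNFRSF9 (4-1BB) rose from 6 to 16 reads to 19 to 48 (limma adjusted p = 5.37e-05) and fell to 9 to 12 in dual knockdown (limma adjusted p = 0.000845). In CCND1 knockdown 5 of the 10 fell and none rose, and in CDK4 knockdown 1 rose. In CDK6 knockdown 5 fell, and in dual knockdown 1 rose and 4 fell. In these comparisons, in that order, 31.0%, 16.0%, 41.9% and 44.0% of tested genes changed in either direction. The 1 that rose in dual knockdown, TNFRSF25 (DR3), averaged 19.6 in NT3, 35.5 in NT4 and 39.95 in dual knockdown, and it was not past the threshold against NT4 alone (0.19, limma adjusted p = 0.629).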

How the data were processed

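RNA-seq values of 21 libraries were taken from the deposited table, which holds 1 signal per gene and library, called normalized counts per the file headers. Per the submitters' processing notes, which give no order or role, Trimmomatic 0.38.1, HISAT2 2.2.1, featureCounts 2.0.3, FastQC 0.74, MultiQC, DESeq2 2.11.40.8 and hg38 were used; the annotation and strand setting are not given in the sources used here. In every library each deposited signal was a whole multiple of 1 step, and 100% of values gave whole reads within 0.05, so reads are values multiplied back. Its 16383 genes have Entrez IDs of at most 140467, 19 of them lack a symbol, and the depth of 12892442 to 21822152 reads per library covers these genes only, which leaves large counting error at genes of few reads. All per-sample columns were used.

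Columns name the group and a library number but no replicate, so replicate numbers follow column order and only name libraries. Genes with at least 10 in at least 3 libraries (11579) were fitted as log2(value + 1) by limma 3.58.1 (R 4.3.3; trended empirical Bayes; a mean for each of the 7 groups) and tested in 10 comparisons. Tests were two-sided with Benjamini-Hochberg adjustment over all tested genes and a threshold of 0.05. Scripts were tested on simulated data. Settings varied were the pseudocount (0.1 or 10), the filter (none, or a mean of at least 100), median centring, quantile normalization, TMM factors, the compared groups alone, NT3 or NT4 alone, edgeR 4.0.16 and DESeq2 1.42.0 on recovered reads, each library left out and, added after seeing the data, a block for sets of library numbers. Named genes are the 8 genes of the death receptor system and genes of most similar pattern. Per pathway list, at most 3 were named by rule, those with the largest change among those called in senescent controls or dual knockdown. XIAP, BIRC6 and TNFRSF25 were named beyond this rule, for their values against NT4 alone. Targeted genes, cell type markers, ligand genes below the filter and overlapping genes were named as well. The genes, lists and tests were chosen with earlier results of these data known. Positions are those of the GENCODE annotation of hg38.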

Additional observations from a re-analysis of the deposited data

Results flagged for a closer look

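The effect of CDK4 siRNA on TNFRSF11B differed with and without CDK6 siRNA: the difference was 0.43 on the log2 scale (SE 0.08, limma adjusted p = 0.0014, interaction contrast). Normalized counts averaged 3223 in NT3, 2060 in NT4, 1980 in CDK4 knockdown, 2105 in CDK6 knockdown and 2181 in dual knockdown. The difference was 0.75 with NT3 alone as control (limma adjusted p = 2.3e-06) and 0.11 with NT4 alone (limma adjusted p = 0.585), so it passed the threshold with NT3 and not with NT4.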

How the results depend on the processing

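The columns carry no replicate number of the labels, but the library numbers in their names run in 3 sets that hold each of the 6 irradiated groups once. A block for these sets, chosen after seeing the data, left the counts of the 8 genes called at 3 for NT4 against NT3, 4 each for CCND1 and CDK4 knockdown, 7 for CDK6 knockdown, 5 for dual knockdown, 1 for the departure, 4 for CDK6 against CDK4 knockdown, 1 for CCND1 against dual knockdown and 4 for dual against CDK6 knockdown, and changed no call or direction of the 8. Deviations from the group means correlated above 0.1 in 1 of 45 same-set pairs of libraries (median r 0.037). For different-set pairs it was 2 of 90 (median r -0.017). Of 18 libraries, 13 were closest to their own set among the 3. Whether libraries of a set share an origin is not said in the labels and was not tested. The values reported have no block for the sets. Proliferating libraries are in no set. Of 80 values (8 genes in 10 comparisons) 41 were called, and 25 of these were called in the same direction under all alternatives run, leaving out each library included.

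Counts of the 8 genes called moved for CCND1 knockdown to 2 with the compared groups alone or NT4 alone, for CDK4 knockdown to 1 and for CDK6 knockdown to 3 with NT4 alone, for the departure from additivity to 2 with NT3 alone (1 to 2 with a library left out), and for CCND1 against dual knockdown to 2 with median centring or the compared groups alone (1 to 3 with a library left out).

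Directions reversed as follows, the cause not tested. With NT4 alone, TNFRSF10C in CCND1 (-0.20) and CDK4 knockdown (-0.093), TNFRSF10D in CCND1 knockdown (-0.10), and TNFRSF11B in CDK6 (0.031) and dual knockdown (0.081). With NT3 alone, TNFRSF10A in CCND1 knockdown (0.13), TNFRSF10C in CDK6 knockdown (0.026) and the departure of TNFRSF10D (-0.12). With quantile normalization, TNFRSF1A in NT4 against NT3 (0.015) and in CCND1 knockdown (-0.001) and TNFRSF10B in CCND1 knockdown (-0.05). TNFRSF10C in CCND1 knockdown was -0.066 with edgeR and -0.069 with DESeq2, and TNFRSF10B in dual knockdown 0.003 with median centring. With 1 library left out, ranges that crossed 0 were, for NT4 against NT3, -0.055 to 0.054 in TNFRSF10B, -0.038 to 0.69 in TNFRSF10C, -0.056 to 0.043 in TNFRSF1A and -0.073 to 0.16 in CFLAR; for CCND1 knockdown, -0.006 to 0.049 in TNFRSF10B and -0.22 to 0.14 in TNFRSF10C; for CDK4 knockdown, -0.11 to 0.25 in TNFRSF10C; for dual knockdown, -0.062 to 0.028 in TNFRSF10B; for CDK6 against CDK4 knockdown, -0.12 to 0.015 in TNFRSF10D; and for dual against CDK6 knockdown, -0.20 to 0.006 in TNFRSF10A. Of these, TNFRSF10C without NT3 replicate 2 passed the threshold in NT4 against NT3 (0.69).

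In senescent controls median centring took the median over genes from -0.03 to 0.09 and the share of higher calls from 47.4% to 57.9%; all 8 genes stayed higher. Over all genes, counts of calls with the compared groups alone were 955 for NT4 against NT3 (3216 as reported), 2269 for CCND1 knockdown (3594), 787 for CDK4 knockdown (1854), 394 for the departure (735) and 2434 for dual against CDK6 knockdown (1504). With NT4 alone they were 2235 for CCND1 knockdown and 455 for the departure, and with NT3 alone 2962 for CDK4 knockdown and 1899 for the departure. Without CDK4 replicate 1 or 2, CDK4 knockdown gave 1175 or 1061 and the departure 442 or 449. The departure gave 1190 and 1436 without NT3 replicates 2 and 3, 442 without CDK6 replicate 3, and 475 and 481 without dual replicates 1 and 3; dual against CDK6 knockdown gave 937 without CDK6 replicate 3. On recovered reads edgeR called 6 of the 8 genes in dual knockdown, and so did DESeq2, TNFRSF10C being the addition (-0.48 and -0.49).

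With 3 libraries a group and 1 siRNA name per target, no knockdown change can be assigned to a target gene rather than its reagent here. The control siRNAs differed at 27.8% of tested genes, and small changes of TNFRSF10A, TNFRSF10D, TNFRSF11B and CFLAR depended on the control used. The small changes of TNFRSF1A in CDK6 and dual knockdown were lost in some alternatives. TNFRSF10A, TNFRSF10C and TNFSF10 rest on few reads.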
